A study of Mus musculus with 16 samples.

Results

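The response to a high fat diet in white fat without Sirt1 was read from 8 of the 16 microarrays of the series, 4 from knockout mice fed a high fat diet and 4 from knockout mice fed a low fat diet. Every gene on the array entered the comparison through its brightest probe set that carries 1 gene symbol, which gave 18193 genes, and the 12078 with a log2 value of at least 4 in at least 4 arrays were tested. Both groups were mice of the C57BL6/J background in which a Cre transgene under the promoter of FABP4, a fatty acid binding protein, deletes Sirt1. They were put on their diets at 4 weeks of age and fed them for 8 weeks, and white fat was taken at 12 weeks. The remaining 8 arrays came from wild-type mice of the same background without the transgene, on the same diets for the same time, 4 on each diet. The transgene was present on both sides of the diet comparison in knockout fat, whereas a comparison with wild type contains the loss of Sirt1 and the transgene together. The labels call the deletion specific to adipocytes. The FABP4 promoter is known to be active in macrophages and some endothelial cells too, so that the deletion need not be limited to adipocytes. The Sirt1 allele, the fat depot, the sex of the mice and what the diets contained are not given in the labels used here. Nothing in the labels says that the 4 replicates of a group are separate mice, and the p-values then measure only their spread, which may be technical.

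Sirt1 is a deacetylase that consumes NAD and acts on histones and on transcription factors, among them NF-kB and the adipocyte factor PPARgamma. In mouse white fat a rich diet enlarges the adipocytes, and macrophages gather around dying ones, take up the lipid they release into acid lysosomes and in part divide in place. The fat cell itself is known to lower its own fatty acid synthesis when fat comes with the food. Brown and beige adipocytes, which burn fat through the uncoupling protein Ucp1, lie among the white ones in some depots.

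The values are log2 expression, so a difference of 1 is a doubling, and the small number of arrays, 4 a group, limits how precise any value below can be. Differences are means of 4 high fat arrays minus means of 4 low fat arrays, with the standard error (SE) of the fit, and adjusted p-values come from limma, adjusted after Benjamini and Hochberg over the 12078 genes. A gene rose or fell where its adjusted p was under 0.05. The tissue label held against its markers: the adipocyte gene Adipoq lay between 13.19 and 13.62 in the 8 knockout arrays, and 10 genes of mammary epithelium averaged 2.10 to 2.37. Skeletal muscle genes marked some arrays. The mean of 18 muscle genes was 8.67 in knockout low fat replicate 2 and 5.01 to 6.71 in the others of that group, and 7.15 in knockout high fat replicate 4 against 5.02 to 6.16. Leaving out these 2 arrays and 3 wild-type arrays in which the muscle gene Tnnt3 was also at 8 or more gave 1359 rises and 982 falls, against the 1887 and 1636 given next. Wild-type high fat replicate 4, with Tnnt3 at 7.95 and the muscle genes at a mean of 7.17, lay just under that limit and was kept. Epithelial genes marked 2 arrays. The mean of 16 genes of urothelium and other epithelium was 4.57 in knockout low fat replicate 4, against 2.88 to 3.01 in the others of its group and 2.70 to 3.20 on high fat, and 10 of the 16 reached 4 in some knockout array. Without that array 1886 genes rose and 1539 fell. The same mean was 7.61 in wild-type high fat replicate 4 and 2.92 to 3.74 in the others of that group. The Sirt1 probe set read 9.37, 9.21, 9.44 and 8.94 on low fat and 8.30, 8.93, 8.81 and 8.93 on high fat in knockout, and 9.42, 9.88, 9.02 and 9.41 and then 8.85, 9.10, 9.08 and 8.85 in wild type, so that the genotypes overlapped. It cannot check the deletion, since the labels do not place it relative to the deleted part.

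The high fat diet changed 3523 of the 12078 genes in knockout fat (29.2%). It raised 1887 (15.6%) and lowered 1636 (13.5%), and the median difference over all genes was -0.018. Every count of rises and falls of a list in knockout fat below stands beside these shares. Changes of at least 2-fold were more often rises, 675 against 387, and so were those of at least 4-fold, 171 against 43. The first principal component of the 8 arrays held 65.5% of their variance and placed the low fat arrays at -40.5 to -31.6 and the high fat arrays at 28.8 to 47.2. Knockout low fat replicate 4 stood apart on the second component (11.8% of the variance), at -34.0 against 2.3 to 22.3 in its group. Knockout high fat replicate 1 stood apart on a further component (7.36%), at 26.3 against -11.6 to -10.6.

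The largest rise of all was of Gpr50, an orphan receptor related to the melatonin receptors. Its log2 values were 2.56, 1.69, 2.17 and 2.13 on the low fat diet and 11.07, 10.37, 10.25 and 10.47 on the high fat diet, a rise of 8.40 (SE 0.74, adjusted p = 1.81e-06). Low values lie in the range where a difference depends on the background correction, and with values under 4 set to 4 the rise was 6.54. Gpr50 thus went from the floor of the scale to the level of an abundant transcript in each of the 4 high fat arrays. Tph2, the tryptophan hydroxylase known from serotonin neurons, read 8.60, 7.83, 6.30 and 6.80 on low fat and 12.16, 12.19, 12.39 and 12.64 on high fat, a rise of 4.96 (SE 0.91, adjusted p = 0.000744). The 4 high fat arrays lie close together, while those on low fat are spread widely below them.

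Several of the other leading rises were of genes known from macrophages. Trem2, a lipid-sensing receptor of macrophages, read 5.66, 5.84, 5.23 and 5.31 on low fat and 10.39, 10.16, 10.40 and 9.86 on high fat, a rise of 4.69 (SE 0.39, adjusted p = 1.06e-06). Olr1, a scavenger receptor for oxidised LDL, went from 4.75, 4.44, 4.65 and 5.69 to 8.90, 8.86, 9.38 and 9.57, and rose by 4.30 (SE 0.32, adjusted p = 7.75e-07). For both genes the groups lie far apart, with no overlap. Il1rn, which blocks the interleukin-1 receptor, read 6.72, 6.31, 5.88 and 5.30 and then 10.89, 10.54, 10.56 and 10.77, a rise of 4.63 (SE 0.58, adjusted p = 2.6e-05). Atp6v0d2, a subunit of the proton pump that acidifies lysosomes, rose from 7.06 ± 0.35 to 11.25 ± 0.21 (mean ± SD, n = 4, limma adjusted p = 1.73e-05). Slc37a2, a sugar phosphate exchanger of macrophages, rose by 4.15 and the receptor for bacterial ribosomal RNA Tlr13 by 3.72. These genes were chosen among the 2127 (17.6%) in which all 4 high fat arrays lay above all 4 low fat arrays, so that their separation is part of the choice.

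Other genes among the 15 largest rises came from several classes. Lcn2, which encodes the iron-binding secreted protein lipocalin 2, read 6.24, 6.62, 5.87 and 7.14 on low fat and 10.92, 10.09, 10.95 and 11.03 on high fat, and rose by 4.28 (SE 0.38, adjusted p = 1.67e-06). The ubiquitin ligase Rnf128 rose by 4.23, the ubiquitin-like modifier Ubd by 4.21, the G protein regulator Rgs1 by 4.08, the clotting factor gene F7 by 4.10 and the DNA repair helicase gene Zranb3 by 4.13. Sel1l3 read 3.59 to 3.99 on low fat, just under the floor of 4, and 7.12 to 8.13 on high fat, and its rise was 3.67 with the floor in place.

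The largest falls were led by Cidea and Ucp1, which are both best known from brown and beige adipocytes. Cidea, a protein of lipid droplets, read 8.50, 9.91, 11.03 and 11.09 on low fat and 4.46, 5.53, 4.07 and 4.46 on high fat, a fall of 5.50 (SE 0.66, adjusted p = 2.1e-05). Ucp1 read 9.10, 9.68, 11.12 and 11.84 on low fat and 5.90, 7.23, 4.81 and 6.04 on high fat, a fall of 4.44 (SE 0.81, adjusted p = 0.000721). The spread was wide in both groups for Ucp1, yet every low fat array lay above every high fat array. Elovl6, an enzyme that lengthens newly made fatty acids, read 9.67, 10.36, 9.22 and 11.87 and then 6.40, 6.62, 6.36 and 6.29, and fell by 3.86 (SE 0.48, adjusted p = 2.39e-05).

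Further falls came from lipid metabolism and from cell contacts. Mogat1, which joins a fatty acid to monoacylglycerol, fell by 2.65, the acyl-CoA synthetase Acsm3 by 3.02, the isomerase of fatty acid oxidation Eci3 by 2.96, and Pon1, the paraoxonase carried on HDL, by 3.01. Cldn1, a claudin of tight junctions, read 7.87, 6.66, 8.09 and 7.82 on low fat and 3.27, 4.18, 4.27 and 3.88 on high fat, a fall of 3.71 (SE 0.40, adjusted p = 9.22e-06). The adhesion protein gene Mpzl2 fell by 3.65, the adhesion receptor gene Adgrg2 by 2.97, the matrix proteoglycan gene Spock3 by 3.28, the pantetheinase gene Vnn3 by 2.60 and the transcription factor gene Mycl by 2.62. Orm3, of the orosomucoid family, read 8.78, 8.22, 8.55 and 8.84 on low fat and 5.05, 5.25, 5.84 and 4.31 on high fat, a fall of 3.48 (SE 0.29, adjusted p = 1.15e-06). The falls named here were likewise chosen among the 1408 falls in which all 4 low fat arrays lay above all 4 high fat arrays. With or without a call, 1868 genes (15.5%) were separated in this way.

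**Figure D1:**
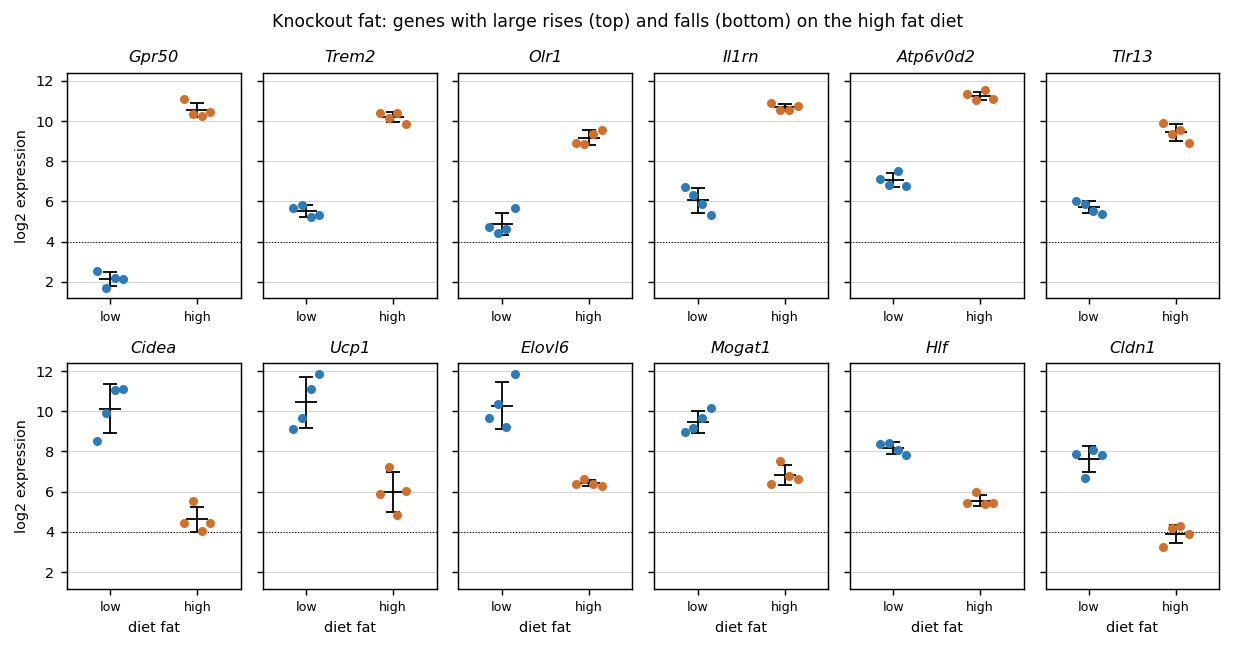
Log2 expression of 6 genes that rose and 6 that fell with the high fat diet in knockout fat; each point is 1 array, the long dash is the mean, the bars are 1 SD (n = 4) and the dotted line is the floor of 4. The diets do not overlap in any panel, and low fat Gpr50 lies under the floor in all 4 arrays.

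Macrophage genes rose broadly. Of 20 tested macrophage markers, 17 rose and 0 fell, with a median difference of 1.03 against -0.018 over all genes. Their mean level was at most 10.47 in the 4 low fat arrays and ran from 11.26 to 11.36 in the 4 high fat arrays. In bulk tissue, more cells of a type and more RNA of that type per cell cannot be told apart. Adgre1, a surface receptor that marks mouse macrophages, read 10.70, 10.71, 10.43 and 9.88 on low fat and 12.05, 11.38, 11.86 and 11.61 on high fat, a rise of 1.29 (SE 0.21, adjusted p = 0.000279). Cd68, a protein of macrophage lysosomes, rose by 1.85 (SE 0.35, adjusted p = 0.00102). The high-affinity receptor for IgG, Fcgr1, read 7.75, 7.70, 6.64 and 6.88 and then 10.37, 10.13, 10.35 and 10.02, and rose by 2.98 (SE 0.31, adjusted p = 6.07e-06). Csf1r, the receptor for the macrophage growth factor, differed by 0.16 (95% confidence interval -0.19 to 0.51, adjusted p = 0.513).

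Genes of lipid-loaded macrophages, the cells that hold lipid from dead adipocytes, rose too. Of 17 tested, 13 rose and 0 fell, and the median was 1.73. Gpnmb, a membrane protein of such cells, read 9.35, 9.06, 9.64 and 8.91 on low fat and 12.47, 12.68, 12.69 and 12.41 on high fat, a rise of 3.32 (SE 0.35, adjusted p = 8.47e-06). The integrin Itgax, or CD11c, rose by 2.74 (SE 0.40, adjusted p = 9.65e-05), with values of 7.10 to 7.77 on low fat and 9.88 to 10.48 on high fat. Ctsk, a collagen-cutting cathepsin, rose by 2.36 and the macrophage elastase gene Mmp12 by 2.70. The lysosomal acid lipase gene Lipa lay at 9.94 to 10.14 on low fat and 11.64 to 11.86 on high fat, and rose by 1.73 (SE 0.23, adjusted p = 3.88e-05), with groups that lie far apart and little spread in either. Lpl, the lipoprotein lipase that adipocytes also make in quantity, differed by -0.05 (95% confidence interval -0.29 to 0.20, adjusted p = 0.799).

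The lysosome moved with these genes. Of 24 tested lysosomal enzymes and proton pump subunits, 12 rose and 0 fell, and the median was 0.43. Gusb, which cleaves glucuronides, read 9.38, 9.62, 9.24 and 9.62 on low fat and 11.29, 11.16, 11.10 and 10.82 on high fat, a rise of 1.63 (SE 0.15, adjusted p = 2.41e-06). Cathepsin A (Ctsa) rose by 0.84, cathepsin Z (Ctsz) by 0.69, the mannosidase gene Man2b1 by 0.84 and Tfeb, the transcription factor that drives lysosomal genes, by 0.85 (SE 0.17, adjusted p = 0.00137). Lamp1 and Ctsd, abundant in the lysosomes of most cells, did not pass: Lamp1 differed by 0.20 (95% confidence interval 0.03 to 0.38, adjusted p = 0.0749) and Ctsd by 0.11 (95% confidence interval -0.09 to 0.31, adjusted p = 0.414). Macrophage markers rose in the same arrays, and their part in the lysosomal rise was not tested.

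Receptors by which myeloid cells take up particles rose as well. Of 14 tested C-type lectins and scavenger receptors, 10 rose and 0 fell, and the median was 1.68. Besides Olr1, the scavenger receptor gene Msr1 read 6.35, 6.35, 6.57 and 6.32 on low fat and 8.97, 8.55, 8.79 and 8.19 on high fat, a rise of 2.23 (SE 0.28, adjusted p = 2.86e-05). Clec7a, the receptor for fungal glucan, rose by 1.97, Clec4a2, an inhibitory lectin receptor, by 2.44 and Stab2, a receptor for hyaluronan, by 1.88 (SE 0.23, adjusted p = 2.41e-05).

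Many chemokines rose. Of 19 tested chemokine genes, 9 rose and 1 fell, where 15.6% and 13.5% of all genes did, with a median of 0.81. Of 11 chemokine receptors tested by limma, 1 fell and 10 did not pass the adjusted threshold, beside the same shares, with a median of 0.23. The 1 receptor fall was lost without knockout low fat or high fat replicate 2, 3 or 4, or without the arrays with muscle transcripts. Ccl2, which draws monocytes, read 5.83, 5.49, 5.26 and 4.95 on low fat and 8.48, 8.12, 8.50 and 8.52 on high fat, a rise of 3.02 (SE 0.38, adjusted p = 2.86e-05). Ccl3 went from 3.50, 3.31, 3.05 and 2.96, under the floor, to 7.30, 6.77, 7.75 and 7.09, and its rise with the floor was 3.23. The monocyte chemokine gene Ccl7 rose by 2.72 and the neutrophil chemokine gene Cxcl2 by 2.85. Cxcl9, which draws T cells, moved the other way and fell by 1.03 (SE 0.23, adjusted p = 0.00294). Ccr2, the receptor for Ccl2, read 10.11, 10.38, 10.11 and 9.79 on low fat and 10.34, 10.10, 10.09 and 10.51 on high fat, a difference of 0.16 (95% confidence interval -0.26 to 0.58, adjusted p = 0.584), with groups that overlap.

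Sensors and signal proteins of inflammation rose in part, where 15.6% of all genes rose and 13.5% fell. Of 18 tested genes of the TNF, Toll-like receptor and NF-kB list, 8 rose and 0 fell, and of 16 genes of caspases, the inflammasome and interleukin-1, 8 rose and 1 fell. Tlr1, which pairs with Tlr2 to sense bacterial lipopeptides, read 7.06, 7.06, 5.58 and 5.90 on low fat and 10.17, 9.69, 9.48 and 9.54 on high fat, a rise of 3.32 (SE 0.34, adjusted p = 5.72e-06). Tlr2 rose by 1.12 and the NF-kB subunit gene Nfkb2 by 0.88, while Tlr4, the receptor for endotoxin, differed by 0.20 (95% confidence interval -0.20 to 0.59, adjusted p = 0.466). Pycard, the adaptor of the inflammasome, rose by 2.00 (SE 0.24, adjusted p = 1.92e-05), Casp1, the protease it recruits, by 0.93 and the bacterial sensor gene Naip2 by 1.83.

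Markers of resident-type macrophages went in both directions. Of 15 tested, 5 rose and 4 fell, where 15.6% and 13.5% of all genes did, and the median was -0.10. Chil3, a chitinase-like protein, read 3.96, 4.60, 3.44 and 3.97 on low fat and 7.38, 6.09, 6.84 and 6.75 on high fat, a rise of 2.77 (SE 0.40, adjusted p = 8.62e-05), and Clec10a rose by 0.74. Timd4, a receptor for phosphatidylserine on resident macrophages, read 5.15, 4.90, 5.34 and 4.48 and then 3.41, 3.81, 3.60 and 3.46, a fall of 1.40 (SE 0.23, adjusted p = 0.00027). Its high fat values all lay under the floor of 4, so that the size of this fall depends on the background correction. The galactose lectin Mgl2 read 8.56, 8.98, 8.44 and 8.29 on low fat and 7.11, 7.88, 7.53 and 7.38 on high fat, a fall of 1.10 (SE 0.21, adjusted p = 0.000971). Retnla and Ccl24, genes of alternative activation, fell by 0.63 and 0.90. Mrc1, the mannose receptor, differed by 0.19 (95% confidence interval -0.12 to 0.49, adjusted p = 0.352).

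Antigen presentation, interferon and lymphocyte genes changed in some members of each list, where 15.6% of all genes rose and 13.5% fell. Of 13 genes of MHC class II presentation, 4 rose and 0 fell, a count of 2 without the arrays with muscle transcripts. The class II chain H2-Aa read 12.21, 12.19, 12.20 and 11.88 on low fat and 12.03, 12.18, 12.32 and 12.29 on high fat, a difference of 0.09 (95% confidence interval -0.16 to 0.33, adjusted p = 0.617). Of 20 interferon response genes, 1 rose and 2 fell, with Irf7 at -0.24 (95% confidence interval -0.64 to 0.16, adjusted p = 0.37). The interferon falls numbered 4 without knockout low fat replicate 4, 1 without any other single knockout low fat array or without high fat replicate 1 or 3, and 0 without the arrays with muscle transcripts. Of 15 T and NK cell genes, 1 rose and 2 fell. The T cell receptor subunit Cd3e differed by -0.50 (95% confidence interval -1.09 to 0.09, adjusted p = 0.193), the adhesion molecule Cd2 fell by 0.85 (SE 0.20, adjusted p = 0.00443), and Il7r, the receptor for interleukin-7, rose by 2.57 (SE 0.38, adjusted p = 0.000119), with values of 7.53 to 8.90 on low fat and 10.62 to 11.35 on high fat. Of 7 B cell genes tested, 3 rose. Cd22, an inhibitory receptor of B cells, read 4.12, 3.69, 3.42 and 3.58 and then 6.76, 5.82, 6.43 and 5.89, a rise of 2.52 (SE 0.20, adjusted p = 9.69e-07). Ighm, the mu heavy chain, rose by 1.97 (SE 0.33, adjusted p = 0.000379), while the B cell marker Ms4a1 differed by -0.53 (95% confidence interval -1.52 to 0.45, adjusted p = 0.425).

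Of 11 genes of the neutrophil and acute phase list, 6 rose and 2 fell, where 15.6% and 13.5% of all genes did. S100a8, a calcium-binding protein of myeloid cells, read 8.35, 7.76, 6.54 and 8.89 on low fat and 10.83, 10.30, 11.07 and 11.40 on high fat, a rise of 3.02 (SE 0.41, adjusted p = 5.95e-05). Its partner S100a9 differed by 0.39 (95% confidence interval -1.06 to 1.84, adjusted p = 0.71), and by 1.37 (adjusted p = 0.0115) without knockout low fat replicate 4, in which it stood at 8.89 against 4.68 to 5.14 in the others of the group. Saa1 read 2.96 to 3.58 on low fat and 4.93 to 6.75 on high fat, a rise of 1.84 with values under 4 set to 4, and Saa3, an abundant serum amyloid gene of fat, rose by 1.31 (SE 0.29, adjusted p = 0.00283). The falls were of Orm3, given above, and of the abundant orosomucoid gene Orm1, with values of 12.78 to 13.05 on low fat and 12.15 to 12.70 on high fat and a difference of -0.37 (SE 0.12, adjusted p = 0.0284). The call of Orm1 ended without knockout low fat replicate 2 or 4 or high fat replicate 1.

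**Figure D2:**
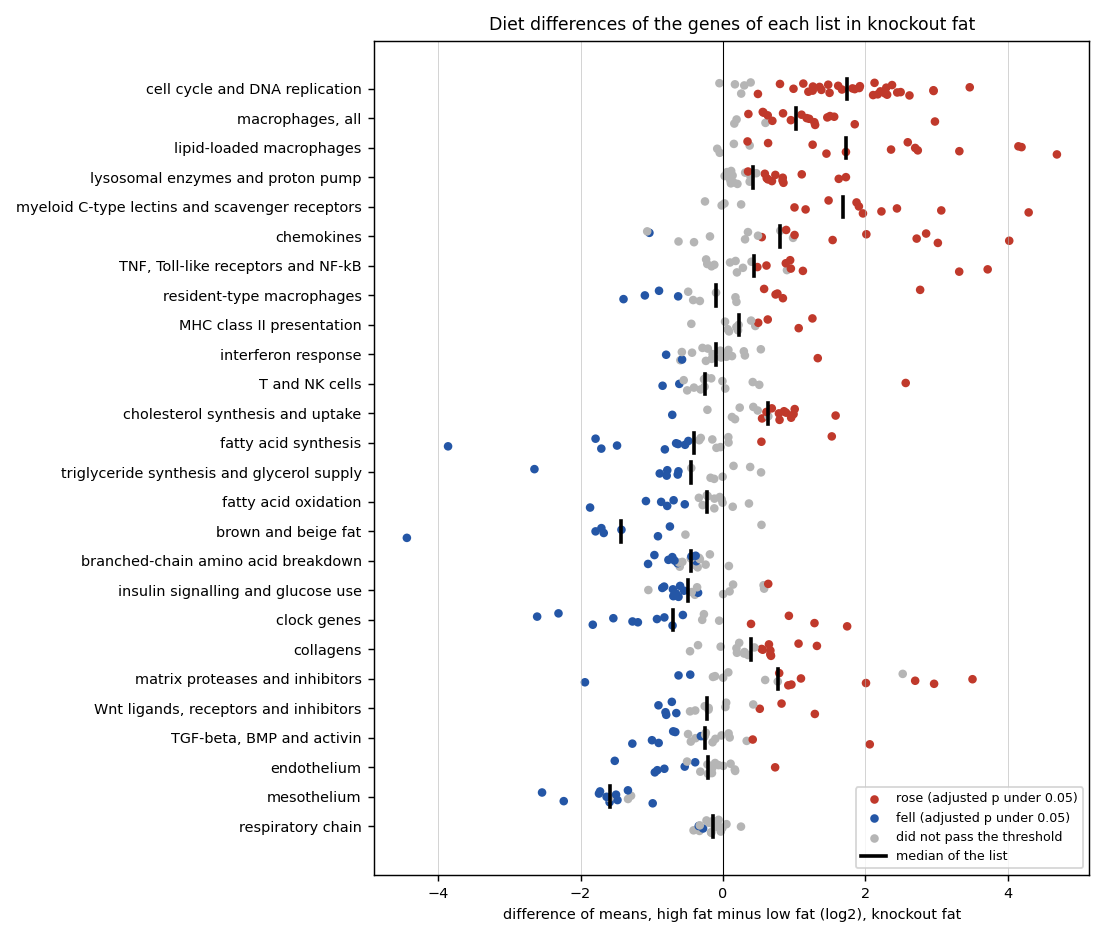
Difference between diets in knockout fat (high fat minus low fat, log2) for each tested gene of 26 lists; each point is a gene, coloured by whether it passed an adjusted p of 0.05, and the black bar is the median of the list. Cell cycle and macrophage genes lie mostly to the right of 0, mesothelial, brown fat and clock genes mostly to the left, and respiratory chain genes close to 0.

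Genes of the cell cycle rose nearly throughout. Of 36 tested, 31 rose and 0 fell, with a median difference of 1.75, or 1.60 with values under 4 set to 4. Mki67, the proliferation marker Ki-67, read 5.69, 6.13, 4.91 and 4.80 on low fat and 8.20, 7.93, 7.98 and 7.91 on high fat, a rise of 2.62 (SE 0.33, adjusted p = 2.71e-05). Top2a, the topoisomerase that untangles chromosomes, rose by 2.11, the mitotic kinase gene Aurkb by 2.21 and the cyclin gene Ccnb2 by 2.17. Tk1, which makes thymidine phosphate for DNA synthesis, read 4.57, 4.38, 3.71 and 3.45 and then 7.61, 7.22, 7.62 and 7.53, a rise of 3.47 (SE 0.31, adjusted p = 1.92e-06). Cdca3, a trigger of mitotic entry, had the smallest p-value of the list: it read 4.88, 5.16, 4.35 and 4.69 on low fat and 7.52, 7.17, 6.87 and 7.31 on high fat, and rose by 2.45 (SE 0.18, adjusted p = 7.61e-07). The spindle checkpoint kinase gene Bub1 lay under the floor on low fat and rose by 1.73 with the floor in place. Mean levels of the list were 5.38 to 5.78 on low fat and 7.06 to 7.34 on high fat over the 38 genes with a probe set, with no overlap between the diets. The arrays do not show which cells these transcripts came from.

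The promoters of 3 of these genes show the element by which many mitotic genes are kept silent outside the cycle, the cell cycle genes homology region (CHR), whose core is TTTGAA. They are the genes past the threshold with the smallest p-values whose RefSeq window, 250 bases before to 50 after an annotated start, holds that core on either strand, and capitals mark each match. Coordinates are those of build GRCm38.p6. Cdca3 lies at chr6:124829926-124830225 on the plus strand, Ccnb2 at chr9:70421505-70421804 and Cdk1, the mitotic kinase, at chr10:69352863-69353162, both on the minus strand.
Cdca3: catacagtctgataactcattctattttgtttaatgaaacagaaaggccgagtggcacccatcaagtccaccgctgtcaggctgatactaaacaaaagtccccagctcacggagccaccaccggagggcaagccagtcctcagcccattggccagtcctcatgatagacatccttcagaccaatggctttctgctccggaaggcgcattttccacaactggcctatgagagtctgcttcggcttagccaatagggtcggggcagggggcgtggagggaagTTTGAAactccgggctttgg
Ccnb2: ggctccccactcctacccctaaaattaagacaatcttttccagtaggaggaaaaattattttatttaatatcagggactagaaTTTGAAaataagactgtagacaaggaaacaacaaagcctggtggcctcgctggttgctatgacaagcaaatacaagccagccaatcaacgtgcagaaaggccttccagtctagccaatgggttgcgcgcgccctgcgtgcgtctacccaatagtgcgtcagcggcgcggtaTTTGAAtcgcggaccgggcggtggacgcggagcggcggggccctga
Cdk1: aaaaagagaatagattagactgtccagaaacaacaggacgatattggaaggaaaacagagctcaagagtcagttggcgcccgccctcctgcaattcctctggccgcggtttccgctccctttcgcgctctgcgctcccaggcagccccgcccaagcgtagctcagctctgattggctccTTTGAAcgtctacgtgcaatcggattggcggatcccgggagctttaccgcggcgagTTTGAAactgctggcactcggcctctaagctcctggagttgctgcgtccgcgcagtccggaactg
The match lies 30 bases after the start in Cdca3, 167 bases before and 4 after it in Ccnb2, and 71 and 15 bases before it in Cdk1. Over the list, 13 of 29 tested members with a promoter in the table hold TTTGAA (44.8%). The share was 20.2% of the 27025 genes in the table and 14.2% of the 9738 of them that were tested. The 26 of these 29 members that rose included all 13, an overlap nearly fixed in advance by so large a share. The CCAAT box, searched as CCAAT on both strands, was found in 22 of the 29 (75.9%), against 41.1% of all genes and 42.6% of the tested genes. A match describes these windows and is not a site of binding.

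The clock genes changed in both directions. Of 17 tested, 10 fell and 4 rose, where 13.5% of all genes fell and 15.6% rose, and the median was -0.71. The 10 falls were kept without any 1 array and without the arrays with muscle transcripts, whereas the count of rises was 2 without any of knockout low fat replicates 1 or 3 or knockout high fat replicates 1 or 3. The falls took in Period genes, REV-ERB receptors and output factors. Nr1d1, the receptor REV-ERB alpha, lay at 8.25 to 8.77 on low fat and 6.13 to 7.31 on high fat, a fall of 1.83 (SE 0.26, adjusted p = 7.78e-05). Per3 read 11.09, 11.06, 11.46 and 11.21 and then 9.99, 9.99, 9.86 and 9.90, and fell by 1.27 (SE 0.16, adjusted p = 3.33e-05). Per2 fell by 1.20 (SE 0.18, adjusted p = 0.000144) and Per1 by 0.71 (SE 0.18, adjusted p = 0.00735). The output factor Hlf read 8.38, 8.43, 8.05 and 7.82 on low fat and 5.42, 5.98, 5.39 and 5.43 on high fat, a fall of 2.61 (SE 0.21, adjusted p = 9.69e-07), and its relative Tef fell by 0.82 (SE 0.14, adjusted p = 0.000472). Rora, a receptor that activates Arntl, also fell, by 0.56 (SE 0.12, adjusted p = 0.00262), and the repressor genes Cry1 and Cry2 differed by -0.05 (95% confidence interval -0.37 to 0.26, adjusted p = 0.816) and -0.29 (95% confidence interval -0.58 to -0.01, adjusted p = 0.115). These 3 genes were added after their values were seen. Among the rises were Arntl, the activator BMAL1, which read 3.22, 2.98, 3.20 and 3.45 and then 4.39, 4.75, 5.26 and 5.43 (a rise of 0.96 with values under 4 set to 4), and Nfil3, which opposes the output factors, by 0.93 (SE 0.22, adjusted p = 0.00432). The labels used here do not give the hour at which the tissue was taken, and any difference in hour between the groups cannot be told apart from diet.

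The factors of the clock act through the E-box, CACGTG, bound by BMAL1 and CLOCK, and the D-box, TTATGTAA, bound by Hlf, Tef and Nfil3. The promoters below are those of the 3 clock genes past the threshold with the smallest p-values that hold either letter string, from the same RefSeq table, with matches in capitals. Per3 lies at chr4:151044616-151044915 on the minus strand, Tef at chr15:81802423-81802722 on the plus strand and Ciart, a repressor of BMAL1, at chr3:95882179-95882478 on the minus strand.
Per3: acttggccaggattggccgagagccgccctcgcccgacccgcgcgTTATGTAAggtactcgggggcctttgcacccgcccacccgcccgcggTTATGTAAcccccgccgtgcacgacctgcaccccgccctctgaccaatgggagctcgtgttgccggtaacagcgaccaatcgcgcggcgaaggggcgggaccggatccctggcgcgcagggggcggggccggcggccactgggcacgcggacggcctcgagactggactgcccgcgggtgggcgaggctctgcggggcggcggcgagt
Tef: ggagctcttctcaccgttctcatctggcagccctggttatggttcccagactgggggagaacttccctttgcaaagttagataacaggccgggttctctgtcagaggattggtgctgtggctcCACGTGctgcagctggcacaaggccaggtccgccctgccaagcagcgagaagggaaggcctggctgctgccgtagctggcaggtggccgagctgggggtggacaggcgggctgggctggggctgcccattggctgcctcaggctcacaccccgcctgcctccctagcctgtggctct
Ciart: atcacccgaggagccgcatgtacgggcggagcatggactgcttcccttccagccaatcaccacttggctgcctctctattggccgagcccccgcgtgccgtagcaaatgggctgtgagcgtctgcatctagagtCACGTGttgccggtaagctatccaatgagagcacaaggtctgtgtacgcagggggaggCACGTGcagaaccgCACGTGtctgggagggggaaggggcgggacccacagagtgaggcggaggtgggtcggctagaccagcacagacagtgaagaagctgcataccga
Per3 holds the D-box at 205 and 158 bases before its start, Tef an E-box at 127 bases before, and Ciart E-boxes at 116, 58 and 44 bases before. Ciart, named here for its promoter, read 6.69, 7.05, 7.17 and 5.43 on low fat and 4.48, 4.82, 3.92 and 3.88 on high fat, a fall of 2.31 (SE 0.41, adjusted p = 0.000532). The E-box was found in 4 of 15 tested clock genes in the table (26.7%), against 8.09% of all genes and 11.7% of the tested genes. The D-box was found in 1 of 15 (6.67%), against 1.11% and 0.667%.

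In the adipocyte's own programme, the genes that define the cell mostly did not pass the threshold, while several of its enzymes fell. Of 18 adipocyte identity genes, 0 rose and 4 fell, where 15.6% and 13.5% of all genes did. The median was -0.20, and mean levels were 12.15 to 12.33 on low fat and 11.74 to 12.10 on high fat. Adipoq differed by -0.19 (95% confidence interval -0.39 to 0.01, adjusted p = 0.142), Pparg by -0.40 (95% confidence interval -0.72 to -0.08, adjusted p = 0.0584) and Fabp4 by 0.15 (95% confidence interval -0.03 to 0.33, adjusted p = 0.214). The vitamin A carrier gene Rbp4 read 12.07, 12.13, 12.05 and 12.73 on low fat and 11.11, 11.21, 11.26 and 11.25 on high fat, a fall of 1.04 (SE 0.15, adjusted p = 9.72e-05). The adiponectin receptor gene Adipor2 fell by 0.47 and the insulin-responsive glucose transporter gene Slc2a4, or GLUT4, by 0.68 (SE 0.19, adjusted p = 0.0118). Macrophage genes rose in the same arrays, and their part in the adipocyte falls was not tested.

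Genes of fatty acid synthesis fell. Of 18 genes, 9 fell and 2 rose, with a median of -0.41. Acaca, the acetyl-CoA carboxylase that starts the pathway, read 10.77, 11.19, 11.02 and 12.33 on low fat and 9.50, 9.88, 9.60 and 9.49 on high fat, a fall of 1.71 (SE 0.29, adjusted p = 0.000378), and Acacb fell by 1.49 (SE 0.26, adjusted p = 0.000546). Fasn, the fatty acid synthase, read 11.85, 11.99, 11.99 and 12.91 and then 11.39, 11.18, 11.39 and 11.51, and fell by 0.82 (SE 0.20, adjusted p = 0.00596). Acly, which supplies the acetyl-CoA, differed by -0.09 (95% confidence interval -0.32 to 0.14, adjusted p = 0.565). Pnpla3, a lipase that follows lipogenic genes, went the other way, with values of 7.34 to 9.04 on low fat and 9.51 to 10.15 on high fat, a rise of 1.53 (SE 0.41, adjusted p = 0.0113). Knockout low fat replicate 4 was the highest for Acaca, Fasn and Elovl6, and 5 genes fell without it.

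Triglyceride assembly and glycerol supply fell as well, in 6 of 13 genes with 0 rises and a median of -0.45. Pck1, which makes glycerol phosphate from pyruvate in fat, fell by 0.89 (SE 0.11, adjusted p = 2.25e-05). Gpam and Gpat3, which add the first fatty acid, fell by 0.79 and 0.78, and the lipin gene Lpin1 by 0.64. The enzymes of the final step did not pass: Dgat2 differed by -0.12 (95% confidence interval -0.49 to 0.25, adjusted p = 0.632) and Dgat1 by -0.17 (95% confidence interval -0.70 to 0.35, adjusted p = 0.634). Lipolysis had 2 falls among 10 genes, where 13.5% of all genes fell, and 1 in most of the settings tried, since the small fall of the triglyceride lipase gene Pnpla2, -0.25 (SE 0.09, adjusted p = 0.0479), lost its call in 16 of them. The hormone-sensitive lipase gene Lipe differed by -0.40 (95% confidence interval -0.74 to -0.05, adjusted p = 0.0816). Pde3b, which ends the cyclic AMP signal on insulin, fell by 0.69 (SE 0.11, adjusted p = 0.000159). On the lipid droplet, Plin5 fell by 1.47 (SE 0.22, adjusted p = 0.00012), whereas Hilpda, which restrains lipolysis and is made in hypoxic or lipid-loaded cells, read 7.31, 7.26, 6.72 and 7.52 on low fat and 9.87, 9.48, 9.66 and 9.21 on high fat, a rise of 2.35 (SE 0.29, adjusted p = 2.27e-05).

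Genes of brown and beige fat fell, and some of fatty acid oxidation with them. Of 9 brown and beige fat genes, 7 fell and 0 rose, with a median of -1.43, or -0.91 with values under 4 set to 4, and without knockout low fat replicate 3 or 4, the 2 highest for Ucp1, 4 fell. Cox8b, a cytochrome oxidase subunit of brown fat, fell by 1.71 (SE 0.34, adjusted p = 0.00124) and Dio2, which activates thyroid hormone, by 1.68 (SE 0.35, adjusted p = 0.00208). The high fat values of Dio2, 3.32 to 3.60, all lay under the floor. Prdm16, the determinant of brown fat, differed by -0.53 (95% confidence interval -1.08 to 0.03, adjusted p = 0.144). Of 17 genes of fatty acid oxidation, 6 fell and 0 rose, where 13.5% of all genes fell and 15.6% rose. Without knockout low fat replicate 3, or without the arrays with muscle transcripts, the count of falls was 3. Ppara, the receptor that drives oxidation, read 5.35, 5.66, 6.84 and 6.35 on low fat and 3.94, 4.45, 4.35 and 3.99 on high fat, a fall of 1.87 (SE 0.31, adjusted p = 0.000296), and the peroxisomal enzyme gene Ehhadh fell by 0.87 (SE 0.19, adjusted p = 0.00321). Acadm, the dehydrogenase for medium chains, differed by -0.12 (95% confidence interval -0.35 to 0.10, adjusted p = 0.428). Among 22 respiratory chain genes 2 fell and 0 rose, beside the same 13.5% and 15.6% of all genes, and the median was -0.14. There were 5 falls without knockout low fat replicate 1, 1 without any of knockout low fat replicates 3 or 4 or high fat replicates 1, 3 or 4, and 0 without the arrays with muscle transcripts.

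Breakdown of branched-chain amino acids, which feeds lipid synthesis in adipocytes, fell in 9 of 20 genes with 0 rises and a median of -0.45. Ivd, an enzyme of leucine breakdown, read 10.89, 10.98, 11.29 and 11.60 on low fat and 9.64, 10.51, 10.30 and 10.12 on high fat, a fall of 1.05 (SE 0.17, adjusted p = 0.000267). Ppm1k, the phosphatase that switches the pathway on, read 7.99, 8.19, 8.28 and 8.45 and then 7.07, 7.37, 7.51 and 7.11, a fall of 0.96 (SE 0.13, adjusted p = 4.72e-05). Acadsb, of isoleucine breakdown, fell by 0.77 and Hibch, of valine breakdown, by 0.68. The first enzyme, Bcat2, differed by 0.08 (95% confidence interval -0.46 to 0.62, adjusted p = 0.836).

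Insulin signalling and glucose use fell in 10 of 20 genes and rose in 1, with a median of -0.49. The insulin receptor gene Insr read 10.17, 10.37, 10.53 and 10.72 on low fat and 9.72, 9.85, 9.76 and 9.95 on high fat, a fall of 0.62 (SE 0.13, adjusted p = 0.00177). The call of Insr ended when the mean of its probe sets was taken. The kinase subunit gene Pik3r1 fell by 0.66, hexokinase 2 (Hk2) by 0.70 and the glycolytic activator gene Pfkfb3 by 0.85. Grb10, an inhibitor of the insulin receptor, fell too, by 0.60 (SE 0.12, adjusted p = 0.00104). Ptpn1, the phosphatase that switches the receptor off, was the 1 rise, by 0.64 (SE 0.15, adjusted p = 0.00493).

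Cholesterol synthesis moved against the other lipid pathways. Of 19 genes, 11 rose and 1 fell, with a median of 0.64, and 7 rose without knockout low fat replicate 3. Without the arrays with muscle transcripts 6 rose. Dhcr7, the last enzyme of the pathway, read 9.94, 9.88, 9.78 and 10.18 on low fat and 11.09, 10.76, 10.95 and 11.01 on high fat, a rise of 1.01 (SE 0.12, adjusted p = 1.82e-05). Fdps, which makes farnesyl diphosphate, read 5.91, 5.86, 5.52 and 7.26 and then 7.62, 7.62, 7.92 and 7.71, a rise of 1.58 (SE 0.35, adjusted p = 0.00283). Mvd rose by 0.96 and Msmo1 by 0.89, whereas squalene synthase (Fdft1) fell by 0.71 (SE 0.13, adjusted p = 0.000864). The core of the sterol response element, TCACNCCAC on both strands, was found in the promoter window of 1 of 15 tested members in the table (6.67%). The share was 1.44% of all genes and 1.36% of the tested genes, and 0 of the 9 members with a call held it. No match says only that these letters are not in this window.

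Secreted factors of fat split. Nrg4, a hormone of brown and white fat that acts on the liver, read 11.65, 11.77, 12.03 and 12.22 on low fat and 9.79, 10.65, 9.89 and 10.04 on high fat, a fall of 1.82 (SE 0.17, adjusted p = 2.96e-06). Metrnl, a relative of meteorin, rose by 1.89 (SE 0.23, adjusted p = 2.16e-05). Lep, the satiety hormone leptin, read 12.71, 12.77, 12.80 and 12.98 on low fat and 12.85, 13.25, 13.21 and 13.31 on high fat, a difference of 0.34 (95% confidence interval -0.01 to 0.69, adjusted p = 0.138). Of 12 genes that track the growth of fat mass, 4 fell and 1 rose, where 13.5% of all genes fell and 15.6% rose. Mest, an imprinted gene used as a sign of fat expansion, read 12.53, 12.35, 11.99 and 12.14 and then 11.98, 12.26, 12.14 and 12.25, a difference of -0.09 (95% confidence interval -0.45 to 0.26, adjusted p = 0.714), with full overlap. Sfrp5, a secreted Wnt inhibitor, rose by 0.82 (SE 0.21, adjusted p = 0.00834), with values of 10.57 to 11.77 on low fat and 11.87 to 12.15 on high fat.

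Stress and NAD genes were called in part, where 29.2% of all genes were called. Of 17 immediate early genes, 5 rose and 1 fell: Egr2 read 7.67, 8.55, 7.82 and 6.76 on low fat and 11.30, 10.33, 10.35 and 10.20 on high fat, a rise of 2.84 (SE 0.37, adjusted p = 3.51e-05), and Atf3, a factor induced by cell stress, lay at 6.75 to 7.17 and then 9.63 to 10.24, a rise of 3.05 (SE 0.45, adjusted p = 0.000102). Fos differed by 1.31 (95% confidence interval 0.11 to 2.50, adjusted p = 0.0938). Of 20 genes of the unfolded protein response, 6 rose and 2 fell. The factor CHOP (Ddit3) rose by 0.94 (SE 0.17, adjusted p = 0.000556), Manf by 1.13 and the chaperone partner Sdf2l1 by 1.63, and Xbp1 differed by -0.12 (95% confidence interval -0.48 to 0.25, adjusted p = 0.649). Of 21 antioxidant genes, 5 rose and 2 fell, and the rises were 2 or 3 without any of knockout low fat replicates 1, 2 or 3 or high fat replicate 3 and 2 without the arrays with muscle transcripts. Hmox1, which degrades heme, read 8.83, 9.07, 9.16 and 8.54 on low fat and 10.62, 10.75, 10.70 and 11.02 on high fat, a rise of 1.87 (SE 0.24, adjusted p = 3.88e-05). Gsta4, which clears the lipid aldehyde hydroxynonenal, read 10.89, 10.73, 10.80 and 11.45 and then 8.54, 9.14, 9.30 and 9.05, a fall of 1.96 (SE 0.43, adjusted p = 0.00295). Of 14 sirtuin and NAD genes, 3 fell and 1 rose, a share close to that of all genes, and 1 fell without knockout low fat replicate 1, without high fat replicate 3 or without the arrays with muscle transcripts. The mitochondrial sirtuin gene Sirt5 fell by 0.64 (SE 0.16, adjusted p = 0.00755) and Sirt3 differed by -0.06 (95% confidence interval -0.34 to 0.22, adjusted p = 0.762). The small difference of Sirt1 itself, -0.50 (SE 0.18, adjusted p = 0.0489), lost its call in 15 of the settings tried.

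Matrix proteases and their inhibitors moved in both directions. Among all genes 15.6% rose and 13.5% fell, the shares beside which the counts of this paragraph stand. Of 18 protease and inhibitor genes, 8 rose and 3 fell. The sheddase gene Adam8 read 7.51, 7.16, 7.78 and 6.83 on low fat and 11.29, 10.43, 10.94 and 10.65 on high fat, a rise of 3.51 (SE 0.47, adjusted p = 4.53e-05). Timp1, an inhibitor of these proteases, read 5.64, 6.21, 5.27 and 4.71 and then 8.96, 7.56, 8.91 and 8.28, a rise of 2.97 (SE 0.38, adjusted p = 3.48e-05). Mmp3 rose by 2.01, while the gelatinase gene Mmp9 read 6.45, 6.48, 6.34 and 6.31 on low fat and 4.08, 5.29, 4.09 and 4.35 on high fat, a fall of 1.94 (SE 0.24, adjusted p = 2.19e-05). Of 18 collagen genes 8 rose and 0 fell, with a median of 0.40, but the count ran from 2 to 10 when 1 array was left out and was 2 without knockout high fat replicate 4, 3 without knockout low fat replicate 3 or 4 or high fat replicate 3, and 4 without high fat replicate 1. Col5a1 rose by 0.67 (SE 0.14, adjusted p = 0.00178) and Col16a1 by 1.06 (SE 0.27, adjusted p = 0.00831).

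Growth factor genes of the stroma changed in both directions, where 13.5% of all genes fell and 15.6% rose. Of 20 genes of the TGF-beta, BMP and activin list, 6 fell and 2 rose, and 3 fell without any of knockout low fat replicates 1 or 2 or high fat replicates 1 or 2. Bmp4, which commits progenitors to the fat lineage, read 7.66, 8.08, 7.96 and 7.60 on low fat and 6.05, 6.61, 7.37 and 6.18 on high fat, a fall of 1.27 (SE 0.26, adjusted p = 0.00176). Tgfb1 itself read 5.61, 5.88, 5.28 and 5.44 and then 8.24, 7.64, 7.53 and 7.05, a rise of 2.06 (SE 0.25, adjusted p = 2.05e-05). Of 16 Wnt genes, 5 fell and 3 rose. The falls were 2 or 3 without knockout low fat replicate 2, 3 or 4 or high fat replicate 1, 2 or 4, and 0 without the arrays with muscle transcripts. Wnt5a fell by 0.80 (SE 0.22, adjusted p = 0.0115), a call among those lost without these arrays, and the inhibitor gene Sfrp1 rose by 1.29 (SE 0.19, adjusted p = 0.000128). Of 16 progenitor and fibroblast genes, 2 fell and 1 rose, and 1 fell without knockout low fat replicate 1 or 2, high fat replicate 1 or 4 or the arrays with muscle transcripts. Dpp4, a marker of early progenitors, fell by 0.88 (SE 0.20, adjusted p = 0.0034), and Pdgfra, which marks the whole lineage, differed by -0.39 (95% confidence interval -0.73 to -0.05, adjusted p = 0.0772).

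Among the other cell types, markers of mesothelium, the sheet that covers visceral fat, fell. Of 13 tested markers, 10 fell and 0 rose, with a median of -1.59, and the mean of the 15 with a probe set was 7.73 to 7.91 on low fat and at most 6.94 on high fat. Upk3b, a marker of this sheet, read 11.33, 11.22, 11.30 and 11.11 on low fat and 9.02, 9.82, 10.24 and 9.50 on high fat, a fall of 1.59 (SE 0.28, adjusted p = 0.000557). Bnc1, a transcription factor of the layer, read 8.62, 8.25, 8.52 and 8.08 and then 4.74, 6.16, 6.82 and 5.58, a fall of 2.54 (SE 0.43, adjusted p = 0.000384), and Lrrn4 fell by 2.24 (SE 0.38, adjusted p = 0.000373). Msln, mesothelin, fell by 0.99 (SE 0.31, adjusted p = 0.0257), a call that ended without knockout low fat replicate 1, 2 or 3 or high fat replicate 1 or 4. Upk3b and Bnc1 stayed above the floor in every high fat array.

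Endothelial genes fell in part. Among all genes 13.5% fell and 15.6% rose, the shares beside which every count of this paragraph stands. Of 19 genes of the endothelial list, 6 fell and 1 rose. The list and its falls count Vegfa, a growth factor of vessels that adipocytes secrete and not an endothelial marker. Vegfa lay at 9.99 to 10.63 on low fat and 8.65 to 9.14 on high fat, a fall of 1.52 (SE 0.21, adjusted p = 7.01e-05). Its receptor genes Kdr and Flt1 fell by 0.96 (SE 0.17, adjusted p = 0.000511) and 0.92 (SE 0.25, adjusted p = 0.0102). Pecam1 and Cdh5, of the junctions between endothelial cells, differed by -0.21 and -0.15 (adjusted p = 0.45 and 0.694), and the tight junction gene Cldn5 rose by 0.73 (SE 0.15, adjusted p = 0.00203). Of 11 smooth muscle and pericyte genes 3 fell, a count of 1 without knockout low fat replicate 1 or high fat replicate 3. Among them, Notch3, the Notch receptor of mural cells, fell by 0.84 (SE 0.21, adjusted p = 0.00653). Of 9 mast cell and eosinophil genes 2 fell: Rnase2a, an eosinophil-associated ribonuclease, read 5.37, 5.41, 7.01 and 7.26 on low fat and 2.85, 3.48, 3.93 and 3.87 on high fat, a fall of 2.26 with values under 4 set to 4. The count was 1 without knockout low fat replicate 1 or 3, high fat replicate 1, 3 or 4 or the arrays with muscle transcripts. Skeletal muscle genes had 1 rise and 1 fall among 18. The rise was of Pvalb, the calcium buffer parvalbumin, which read 6.17, 8.99, 4.57 and 3.96 on low fat and 9.33, 9.59, 9.52 and 9.88 on high fat, while Tnnt3 differed by -0.63 (95% confidence interval -4.03 to 2.78, adjusted p = 0.802). The call of Pvalb ended without knockout low fat replicate 3.

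**Figure D3:**
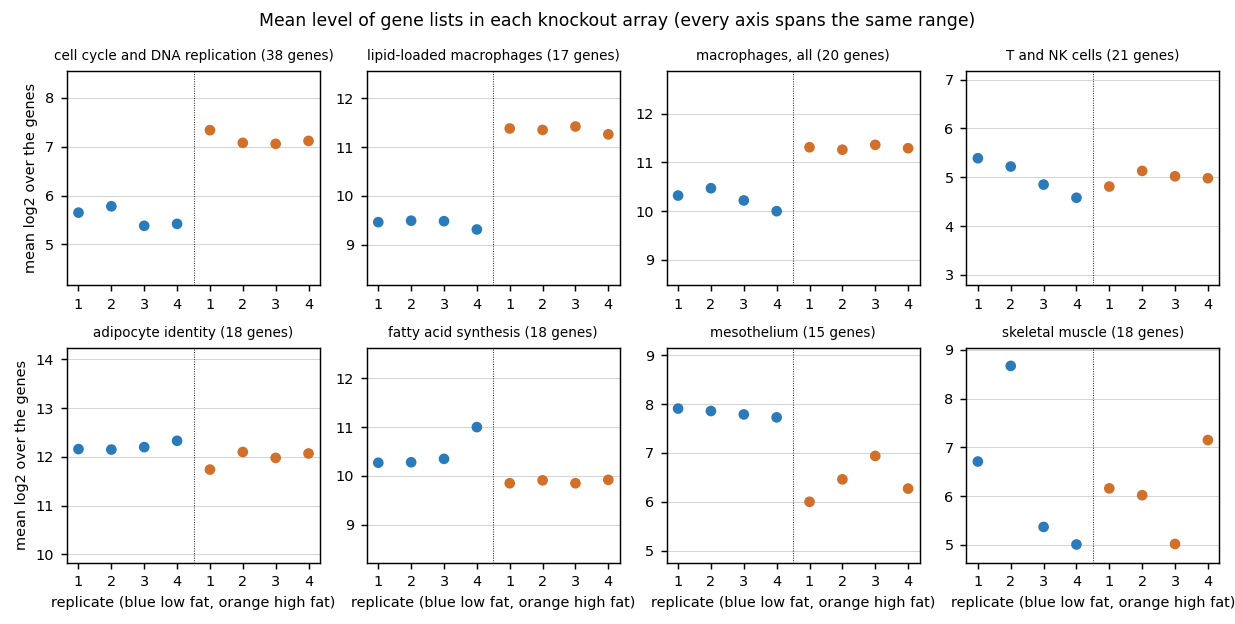
Mean log2 expression of 8 gene lists in each of the 8 knockout arrays, over all genes of the list with a probe set; blue is the low fat diet, orange the high fat diet, and every vertical axis spans the same range. Cell cycle and macrophage lists are higher and mesothelium lower in all 4 high fat arrays, T and NK cell genes overlap, and muscle genes vary within both diets.

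Compared with wild-type fat, which shares no array with it, the diet response of knockout fat was shared in part. In wild type 2472 genes rose (20.5%) and 1832 fell (15.2%), and the differences of the 2 genotypes correlated across the 12078 genes with r = 0.534, a description over genes, which are not independent replicates. Of the knockout rises, 55.7% rose in wild type too, and of the wild-type rises 42.6% rose in knockout, 1052 genes. For the falls these shares were 41.5% and 37.1%, 679 genes. A rise in 1 genotype and a fall in the other was rare, with 21 genes up in knockout and down in wild type and 111 the other way. The difference between the responses was itself tested as an interaction, and 1569 genes passed, 618 with the knockout difference above that of wild type (5.12%) and 951 below (7.87%). The interaction contains the wild-type arrays, and its upper count ran from 376 to 1183 and its lower from 711 to 1199 as 1 array was left out, highest without wild-type low fat replicate 2 and lowest without knockout low fat replicate 1 and wild-type high fat replicate 3. Without the 5 arrays with muscle transcripts the counts were 106 and 318.

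**Figure D4:**
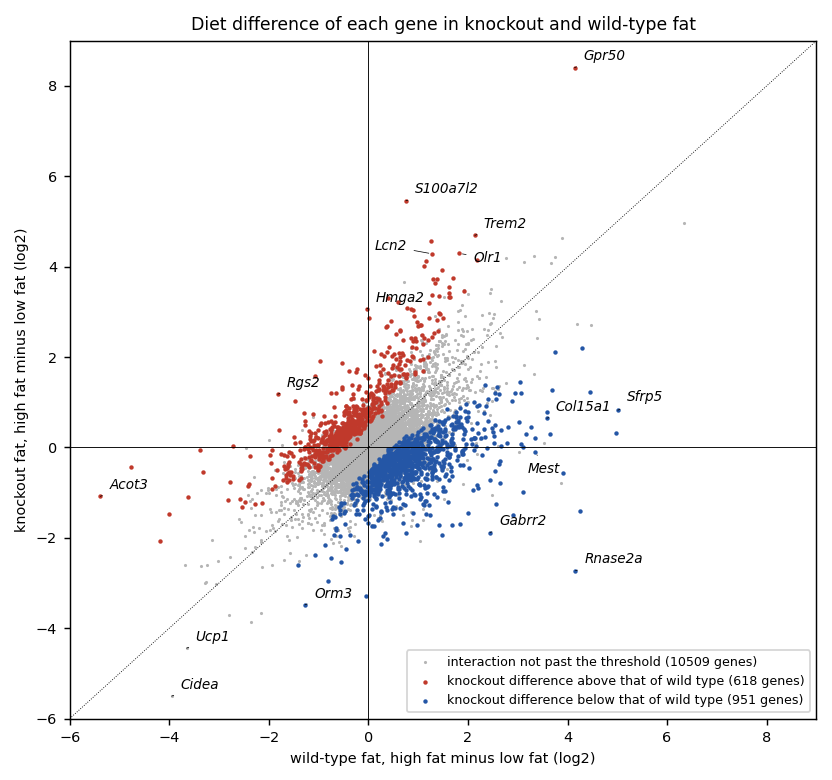
Diet difference (high fat minus low fat, log2) of each of the 12078 genes in wild-type fat (horizontal) and knockout fat (vertical); colours mark genes whose interaction passed an adjusted p of 0.05, and the dotted line is where both are equal. Cidea and Ucp1 lie below the dotted line with interactions that did not pass. Among genes whose interaction passed, Trem2, Olr1 and Hmga2 lie above the line and Sfrp5, Mest and Rnase2a below.

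A first set of genes responded in knockout fat by more than in wild type, 311 of them rises. Hmga2, a chromatin protein of growing cells that is usually silent in the adult, read 4.59, 4.51, 4.53 and 5.03 on low fat and 8.22, 6.72, 8.20 and 7.79 on high fat in knockout, a rise of 3.07 (SE 0.30, adjusted p = 4.44e-06). In wild type it read 3.99, 4.40, 5.05 and 4.27 and then 4.09, 4.96, 4.11 and 4.42, and the interaction was 3.10 (SE 0.43, adjusted p = 0.000405). Its values were thus near the floor in 3 groups and above it throughout in the high fat arrays of knockout. Zranb3 rose by 4.13 in knockout and by 1.16 in wild type, an interaction of 2.97 (SE 0.48, adjusted p = 0.00126). S100a7l2, a member of the S100 family, was under 2 in every knockout low fat array and at 8.18, 5.54, 7.82 and 7.53 on high fat, and the interaction was 4.71 (SE 0.58, adjusted p = 0.000203). Sel1l3 had an interaction of 2.45, Lcn2 of 3.00, Olr1 of 2.48 and Gpr50 of 4.26. Gpr50 also rose in wild type, where its high fat arrays read 3.07, 7.83, 7.28 and 7.54, so that 1 of the 4 was not raised. Without the 5 arrays with muscle transcripts the interactions of Sel1l3, Lcn2, Olr1 and Gpr50 lost their calls.

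Some macrophage genes of the lipid-loaded and phagocytic kind were among these. The diet difference of Trem2 was 4.69 in knockout and 2.14 in wild type, an interaction of 2.55 (SE 0.55, adjusted p = 0.0071). For Msr1 they were 2.23 and 0.42, an interaction of 1.81 (SE 0.40, adjusted p = 0.00809), and for Tlr13 3.72 and 1.30, an interaction of 2.42 (SE 0.53, adjusted p = 0.00755). Of the 17 lipid-loaded genes 4 had an interaction above 0 and 0 below, of the 14 lectins and scavenger receptors 5 and 0, and of the 24 lysosomal genes 5 and 0. Over all genes 5.12% lay above and 7.87% below. The median interactions of these lists were 0.185, -0.003 and 0.277, against -0.014 over all genes. The mean of the lipid-loaded genes was 9.45, 10.84, 9.88 and 10.71 in wild-type high fat arrays, and 11.26 to 11.42 in those of knockout. Without the 5 arrays with muscle transcripts the interactions were 2.44 (adjusted p = 0.0519) for Trem2, 1.54 (adjusted p = 0.0959) for Msr1 and 2.12 (adjusted p = 0.0790) for Tlr13. Of the 20 general markers 1 had an interaction that passed, Fcgr1, which differed by 2.98 in knockout and 1.42 in wild type, an interaction of 1.56 (SE 0.43, adjusted p = 0.0276). That call was lost without any of knockout low fat replicate 3, knockout or wild-type high fat replicates 1 or 3, or the 5 arrays with muscle transcripts. Adgre1 differed by 1.29 in knockout and 1.25 in wild type, an interaction of 0.05 (SE 0.30, adjusted p = 0.932) that did not pass, and Cd68 by 1.85 and 1.38, an interaction of 0.47 (SE 0.50, adjusted p = 0.561).

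Rgs2, a brake on G protein signals, moved in opposite directions. It read 9.02, 9.36, 9.60 and 9.11 on low fat and 10.94, 10.18, 10.55 and 10.13 on high fat in knockout, a rise of 1.18 (SE 0.32, adjusted p = 0.0112), and 11.64, 11.67, 11.25 and 10.33 and then 8.91, 9.58, 8.89 and 10.23 in wild type, a difference of -1.82 (SE 0.32, adjusted p = 0.000413). The interaction was 3.00 (SE 0.45, adjusted p = 0.00073). Acot3 and Rassf6 fell by more in wild type, and neither kept a knockout fall above the floor. Acot3, a peroxisomal thioesterase, was under 4 in all 8 knockout arrays and read 7.84, 6.38, 7.54 and 7.03 and then 1.85, 1.96, 1.81 and 1.62 in wild type, an interaction of 4.30. Rassf6 read 3.64, 4.10, 4.29 and 5.64 on low fat and 2.25, 2.66, 2.11 and 2.34 on high fat in knockout, and its knockout call was lost with values under 4 set to 4. Its interaction of 2.11 lost its call without knockout low fat replicate 1 and, at 1.69 (adjusted p = 0.240), without the 5 arrays with muscle transcripts.

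A second set of 373 genes fell in knockout fat and lay below the wild-type response. Gabrr2, a subunit of a GABA receptor, read 9.68, 9.05, 9.69 and 9.71 on low fat and 7.87, 7.92, 7.59 and 7.21 on high fat in knockout, a fall of 1.88 (SE 0.29, adjusted p = 0.00019). In wild type it read 5.53, 6.03, 6.50 and 7.38 and then 8.80, 8.83, 8.99 and 8.59, the opposite direction, and the interaction was -4.33 (SE 0.42, adjusted p = 1.96e-05). Abat, which degrades GABA, likewise, had a fall of 0.83 (SE 0.18, adjusted p = 0.00253) in knockout, a difference of 2.18 in wild type and an interaction of -3.01 (SE 0.25, adjusted p = 7.34e-06). Rnase2a fell in knockout and differed by 4.16 (SE 0.53, adjusted p = 3.03e-05) in wild type, an interaction of -6.89 (SE 0.75, adjusted p = 7.61e-05). The glutamate transporter gene Slc1a1 had an interaction of -3.40, Disp2 of -3.40, Ankrd29 of -3.45, Ripor2 of -3.13 and Mal2 of -3.09. Each of these 5 fell in knockout fat and rose in wild type. Without the arrays with muscle transcripts Ripor2 lost both its fall and its interaction.

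Single genes of groups described above belonged here. Mesothelial Upk3b read 11.55, 11.36, 10.26 and 11.53 and then 10.78, 10.93, 11.09 and 11.61 in wild type, a difference of -0.07 and an interaction of -1.52 (SE 0.40, adjusted p = 0.021). In wild type 1 of the 13 mesothelial genes fell and 0 rose, and 4 had an interaction below 0, as did 7.87% of all genes. The mean of the 15 genes was 8.25, 8.07, 7.02 and 8.17 on low fat and 7.62, 7.32, 7.69 and 8.84 on high fat in wild type. The highest, high fat replicate 4, was the array marked by epithelial genes, and its part in the small wild-type difference was not tested. Per2 read 9.63, 10.10, 9.54 and 10.02 and then 10.21, 9.66, 9.65 and 9.50 in wild type, a difference of -0.07, and the interaction was -1.13 (SE 0.26, adjusted p = 0.00961). Per3 had an interaction of -0.99 (SE 0.23, adjusted p = 0.0112), a call lost with the mean of its probe sets, whereas Nr1d1 differed by -1.98 in wild type, an interaction of 0.15 (SE 0.37, adjusted p = 0.818). Bmp4 differed by 0.74 in wild type, with an interaction of -2.02 (SE 0.37, adjusted p = 0.00293), Mgl2 by 1.38, with an interaction of -2.48 (SE 0.29, adjusted p = 0.000148), and Timd4 by 0.25, with an interaction of -1.65 (SE 0.32, adjusted p = 0.00414). The interactions of Upk3b, Per2, Bmp4 and Timd4 lost their calls without the 5 arrays with muscle transcripts.

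A further set of 483 genes rose in wild type, had no call in knockout and an interaction below 0. Mest and Lep, from the list of genes that track fat mass, were among them. Mest read 8.87 to 9.71 on low fat and 12.40 to 12.76 on high fat in wild type, against 11.99 to 12.53 and 11.98 to 12.26 in knockout, an interaction of -3.45 (SE 0.24, adjusted p = 1.57e-06). For Lep the wild-type ranges were 11.15 to 12.05 and 12.89 to 13.30, and the interaction was -1.15 (SE 0.23, adjusted p = 0.00524). Sfrp5, whose small rise in knockout lost its call without the arrays with muscle transcripts, read 6.83, 7.37, 6.68 and 7.10 and then 11.68, 12.14, 12.14 and 12.07 in wild type, where it differed by 5.01, while the knockout low fat arrays lay far above the wild-type low fat arrays. The interaction was -4.19 (SE 0.30, adjusted p = 1.57e-06). Col15a1, a collagen of basement membranes, read 6.53 to 7.82 and 10.49 to 10.90 in wild type and 9.82 to 10.52 and 10.82 to 10.91 in knockout, an interaction of -2.94 (SE 0.30, adjusted p = 4.2e-05). Col15a1 also rose in knockout, by 0.65 (SE 0.21, adjusted p = 0.0335), a call lost without any of knockout low fat replicates 3 or 4 or any 1 high fat replicate. Of the 12 fat mass genes 7 had an interaction below 0, of the 18 collagens 9, of the 16 Wnt genes 8 and of the 20 interferon genes 6, with 0 above in these 4 lists. Over all genes 7.87% lay below and 5.12% above. For Mest, Lep and Sfrp5 the wild-type low fat arrays stood apart, and the 3 other groups lay closer together.

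**Figure D5:**
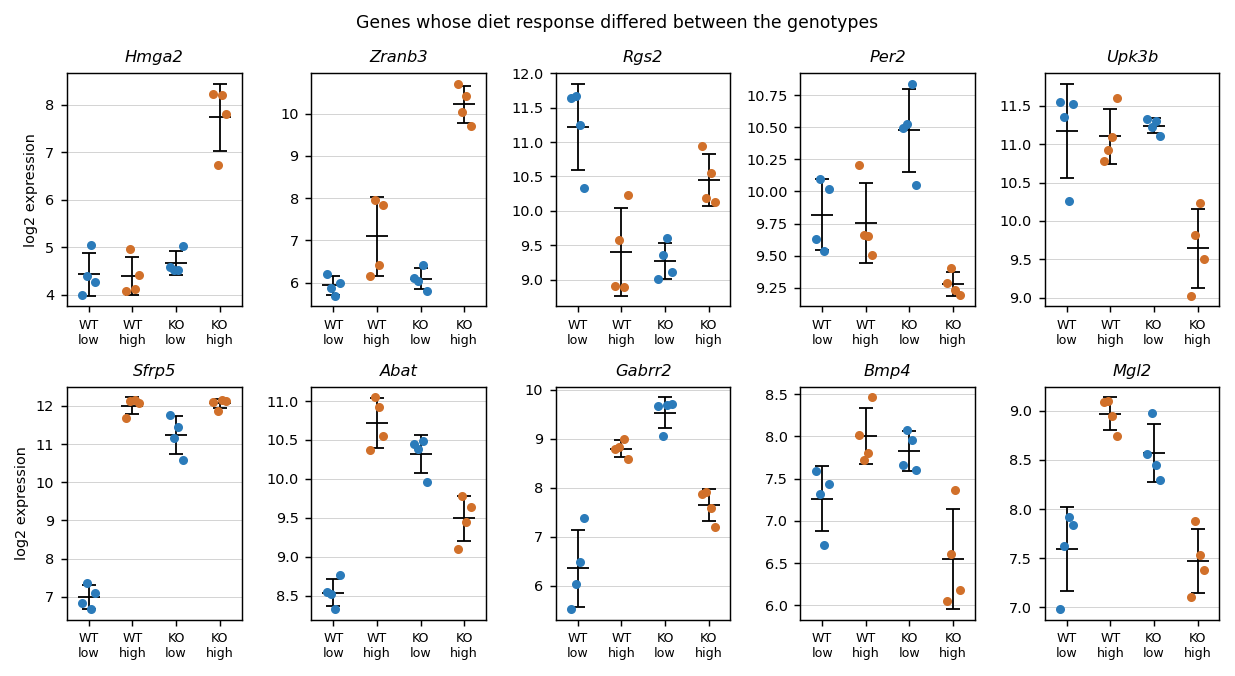
Log2 expression of 10 genes with an interaction past the threshold in all 4 groups (WT, wild type; KO, knockout; low and high fat diet); points are arrays, the long dash is the mean and the bars are 1 SD (n = 4), and each panel has its own axis. Of the 4 groups, Hmga2 is highest in knockout on high fat, Upk3b is lowest there, and Sfrp5 is lowest in wild type on low fat.

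Large falls of the brown fat genes Cidea and Ucp1 and the lipid synthesis genes Elovl6 and Acaca were seen in both genotypes. Not every brown fat gene did the same. Dio2 had means of 5.14 on low fat and 3.46 on high fat in knockout, and of 3.24 and 3.22 in wild type, under the floor. Of the 9 brown and beige fat genes 6 fell in wild type, where 15.2% of all genes fell. Their list had 1 interaction above 0 and 1 below, where 5.12% and 7.87% of all genes did. Cidea differed by -5.50 in knockout and -3.95 in wild type, Ucp1 by -4.44 and -3.65, Elovl6 by -3.86 and -2.36, and Acaca by -1.71 and -1.93. Their interactions, -1.55 (SE 0.94, adjusted p = 0.286) for Cidea, -0.79 (SE 1.15, adjusted p = 0.68) for Ucp1, -1.50 (SE 0.67, adjusted p = 0.152) for Elovl6 and 0.22 (SE 0.41, adjusted p = 0.748) for Acaca, did not pass the threshold, which with 4 arrays a group does not show that the responses were equal. Of the 36 cell cycle genes, 28 rose and 1 fell in wild type, and the interaction passed for 7 above 0 and 1 below. Mki67 differed by 2.62 and 2.32, an interaction of 0.30 (SE 0.46, adjusted p = 0.705), and Cdca3 by 2.45 and 1.27, an interaction of 1.17 (SE 0.25, adjusted p = 0.0071), a call lost without the arrays with muscle transcripts.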

How the data were processed

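RNA from white fat of 16 mouse samples was hybridised to Affymetrix arrays, 1 array per sample. The authors deposited 1 log2 value for each probe set and array. The submitters' processing notes name GCRMA 2.20.0 and R 2.11.1 as the tools. GCRMA corrects the background from probe sequence, so low values depend on its model. Of 45037 probe sets, 34945 carry 1 gene symbol in the platform annotation, 932 several and 9160 none, and those with several or none were left out. Each gene was its probe set with the highest mean over 16 arrays, and the filter kept genes at a log2 of 4 or more in at least 4 arrays, which left out 6115. Array medians lay between 4.34 and 4.46, no 2 arrays held identical values, and correlations within the knockout groups were 0.991 to 0.996.

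All 16 arrays were fitted in limma 3.58.1 (R 4.3.3) with 1 mean per group, lmFit and eBayes, two-sided, with Benjamini-Hochberg adjustment over all genes tested. The fit was tested on simulated data. The members and the 50 gene lists were chosen with earlier results of these data known, and no list was tested as a set. Genes named are the 15 largest rises and falls without overlap after values under 4 were set to 4, up to 5 members with the smallest p-values per list and direction with the first 3 genes of the list, the 10 largest interactions each way among genes that also passed in knockout, and Sirt1. Cdk1 and Ciart are named for their promoters, and Rora, Cry1 and Cry2 were added after their values were seen. Provisional symbols were counted but not named. Of 936 list entries, 849 were found as written and 3 under an older symbol, and 84 had no probe set. Promoters are from RefSeq, build GRCm38.p6.

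Replicate numbers recur in every group. The deviations of same-numbered knockout arrays from their group means correlated at -0.170 to 0.199, and 2 of 4 pairs exceeded 0.1, so the numbers were not taken to pair the samples. Alternatives tried were the filter, the floor, the arrays fitted, eBayes with trend, array weights, scaling, the choice of probe set, the threshold, a replicate block, leaving out each array, and leaving out the arrays with muscle transcripts, which was chosen after seeing the data.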

Additional observations from a re-analysis of the deposited data

Results flagged for a closer look

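Within a group of 4 arrays, 1 array lay far from the other 3 for 28 of the 406 pairs of a gene named above and a knockout group, by Dixon's criterion, which chance alone meets in about 1 in 20 groups. Knockout low fat replicate 4, which stood apart on the second principal component, was the array for 11 of these, with the range of the other 3 arrays of its group in brackets here and in the next sentences. It had Acadsb at 11.81 (11.52 to 11.56), Ddit3 at 8.24 (7.79 to 7.83), Dgat2 at 12.66 (12.15 to 12.22), Fasn at 12.91 (11.85 to 11.99), H2-Aa at 11.88 (12.19 to 12.21) and Hmga2 at 5.03 (4.51 to 4.59). It also had Lipe at 11.79 (11.06 to 11.16), Msln at 8.28 (8.98 to 9.10), Pdgfra at 11.20 (11.67 to 11.72), Rbp4 at 12.73 (12.05 to 12.13) and S100a9 at 8.89 (4.68 to 5.14). In knockout high fat replicate 1 the value stood apart for Adipoq at 13.19 (13.42 to 13.45), Cd3e at 4.42 (5.55 to 5.64), Cxcl2 at 7.01 (5.89 to 6.05), Egr2 at 11.30 (10.20 to 10.35), Pik3r1 at 10.09 (10.77 to 10.87) and Slc2a4 at 9.80 (10.35 to 10.45). In knockout high fat replicate 2 the value stood apart for Acly at 12.35 (12.69 to 12.70), Ccl2 at 8.12 (8.48 to 8.52), Hk2 at 10.81 (10.31 to 10.35), Hlf at 5.98 (5.39 to 5.43), Lcn2 at 10.09 (10.92 to 11.03) and Pfkfb3 at 12.13 (11.65 to 11.72). In knockout low fat replicate 2 the value stood apart for Acly at 12.62 (12.72 to 12.73), Ankrd29 at 7.80 (8.50 to 8.61) and Gabrr2 at 9.05 (9.68 to 9.71). In knockout low fat replicate 3 the value stood apart for Msr1 at 6.57 (6.32 to 6.35) and S100a7l2 at 1.55 (1.88 to 1.90). The cause of these single values was not tested.

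The diet difference in knockout fat differed from that in wild-type fat, by the interaction term of limma at an adjusted p under 0.05, for 70 of the 203 genes named above. The 33 whose interaction was given above follow. The knockout difference was above the wild-type one for Acot3 by 4.30, Cdca3 by 1.17, Fcgr1 by 1.56, Gpr50 by 4.26, Hmga2 by 3.10, Lcn2 by 3.00, Msr1 by 1.81 and Olr1 by 2.48. Likewise above were Rassf6 by 2.11, Rgs2 by 3.00, S100a7l2 by 4.71, Sel1l3 by 2.45, Tlr13 by 2.42, Trem2 by 2.55 and Zranb3 by 2.97. It was below for Abat by -3.01, Ankrd29 by -3.45, Bmp4 by -2.02, Col15a1 by -2.94, Disp2 by -3.40, Gabrr2 by -4.33, Lep by -1.15 and Mal2 by -3.09. Also below were Mest by -3.45, Mgl2 by -2.48, Per2 by -1.13, Per3 by -0.99, Ripor2 by -3.13, Rnase2a by -6.89, Sfrp5 by -4.19 and Slc1a1 by -3.40. Further below were Timd4 by -1.65 and Upk3b by -1.52. These values are log2 differences of differences, and their errors and adjusted p-values stand with the genes above or, where not printed, lay under the same threshold.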

How the results depend on the processing

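With 1 array left out, the rises in knockout fat numbered 1488 to 2048, the falls 1172 to 1773, the interactions above 0 376 to 1183 and those below 0 711 to 1199. The rises were fewest without knockout low fat replicate 3 and the falls fewest without knockout high fat replicate 1. Array weights gave 2556 falls and 1113 interactions above 0. Testing every probe set gave 3557 rises, 3514 falls, and 1432 and 1466 interactions above and below 0. An adjusted p of 0.01 gave 1183, 876, 171 and 405 in the same order, and a 2-fold minimum gave 675, 387, 270 and 569. Without the 5 arrays with muscle transcripts there were 982 falls and 106 and 318 interactions, with fewer samples in the fit. Centring each array on its median gave 1730 rises and 1929 falls, and 853 interactions above and 868 below 0. A replicate block gave 1829, 1571, 511 and 879. The numbers were not taken to pair the samples, and the block moved none of these 4 counts by more than 1.5 times. Of the 203 genes named in the text 170 had a call. Single genes were not followed at the adjusted p of 0.01, with the 2-fold minimum or with every probe set tested. In the other alternatives 158 of the 170 kept direction and side and 11 lost the call in at least 1. Without the arrays with muscle transcripts 7 of these 11 lost it. Acot3 went to 0.000 with values under 4 set to 4, and Pnpla2 to 0.104 with the mean of its probe sets (limma adjusted p = 0.607). Of the 33 interactions given, 17 kept their call in all of those other alternatives that fitted an interaction. The other causes were not tested.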
